A study of Homo sapiens with 6 samples.

Results

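The miR-183, miR-96 and miR-182 cluster was examined in small RNA libraries of A549 cells through 4 mature miRNAs, selected by name: hsa-miR-183-5p, hsa-miR-183-3p, hsa-miR-96-5p and hsa-miR-182-5p (the prefix hsa, for human, is left out from here on unless a member is introduced). All 4 were found among the 2588 miRNAs of the deposited table. A549 is an established human cell line from a lung adenocarcinoma. The Ctrl group was 3 libraries of parental A549 cells, and the *MIR21*-KO group was 3 libraries of A549 cells in which the *MIR21* locus had been deleted with Cas9 and a pair of guide RNAs. Cells of both groups were harvested 48 h after seeding. The study obtained its knockout cells from sorted single cells, and the labels do not say whether the *MIR21*-KO libraries come from 1 clone or several, nor whether replicates are separate cultures. P-values therefore measure only the spread between these libraries, and the loss of miR-21 and the selection of a clone cannot be told apart.

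The hairpins of this cluster are transcribed together as a polycistronic primary RNA, from which Drosha and then Dicer release the mature strands. The family is best known from sensory organs, where it is abundant in hair cells and photoreceptors, and from carcinomas, including lung cancer, where it is often raised and represses growth-restraining transcription factors such as FOXO1. Target choice depends mostly on the seed, bases 2 to 8 of the mature strand, so miRNAs with similar seeds can share targets.

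In GENCODE 29 on GRCh38 the cluster lies on the minus strand of chromosome 7, between the protein-coding genes *NRF1* and *UBE2H*, and no other annotated gene overlaps its span of 4632 bases. *MIR183* (chr7:129774905-129775014) comes first in the direction of transcription. *MIR96* (chr7:129774692-129774769) follows after 135 bases, and *MIR182* (chr7:129770383-129770492) lies a further 4199 bases downstream. The mature strands are shown because the seeds define what the members have in common, with the seed in capitals and the sequences taken from RefSeq (GRCh38.p14).
miR-183-5p: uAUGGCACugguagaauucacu
miR-96-5p: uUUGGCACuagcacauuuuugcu
miR-182-5p: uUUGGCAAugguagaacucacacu
miR-183-3p: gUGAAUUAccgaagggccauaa

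On GRCh38.p14 these strands lie at chr7:129774967-129774988 (miR-183-5p), chr7:129774739-129774761 (miR-96-5p), chr7:129770447-129770470 (miR-182-5p) and chr7:129774928-129774949 (miR-183-3p), all on the minus strand. The seeds of the 5p strands share the run UGGCA at bases 3 to 7. miR-183-5p and miR-96-5p had the same base at 6 of 7 seed positions, as did miR-96-5p and miR-182-5p, while miR-183-5p and miR-182-5p had 5 of 7 in common. Over the whole strands, seed included and counted from the 5′ end, the order was another one. miR-183-5p and miR-182-5p were identical at 18 of 22 positions, miR-183-5p and miR-96-5p at 13 of 22, and miR-96-5p and miR-182-5p at 12 of 23. The perfect seed matches in a target would be GUGCCAU for miR-183-5p, GUGCCAA for miR-96-5p and UUGCCAA for miR-182-5p. miR-183-3p, the opposite strand of the miR-183 hairpin, had no seed base in common with miR-183-5p at the same position. Among all mature strands of the RefSeq table, only miR-1271-5p, encoded on chromosome 5, carries the seed of one of the 4 members, that of miR-96-5p:
miR-1271-5p: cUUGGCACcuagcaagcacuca

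The deposited value is a TMM-scaled count per 1000000, in which all reads of a library were divided by 1 factor set by the authors. Read counts could be recovered from it exactly, and the libraries held 5577287 to 9768152 miRNA reads. The deletion was visible in all libraries: miR-21-5p made up 65.5% to 69.4% of the reads in Ctrl and 0.0156% to 0.0254% in *MIR21*-KO. Over the 607 miRNAs tested, the first principal component held 64.0% of the variance and placed Ctrl replicates 1 and 2 beside *MIR21*-KO replicate 3 on one side, with Ctrl replicate 3 beside *MIR21*-KO replicates 1 and 2 on the other. These sides cross the conditions, and each member is also compared within them. Of 7 epithelial miRNAs, all but miR-205-5p passed the filter on low values and 0 were called, with summed values of 1383 to 2176 in Ctrl and 887 to 1276 in *MIR21*-KO. Most of these sums came from miR-200b-3p, with a log2 fold change of -1.10 (adjusted p = 0.431 by limma). The list was mixed, as 2 of the 6 tested, miR-200c-3p and miR-203a-3p, had positive fold changes. miR-205-5p had 0 reads in all Ctrl libraries. Of 6 blood, 1 liver, 3 muscle and 2 neuronal miRNAs, 1 of each list passed the filter and 0 were called. Their summed values in Ctrl and *MIR21*-KO were 2.26 to 43.8 and 3.10 to 9.36 for blood, 7.90 to 141 and 8.58 to 51.9 for liver (miR-122-5p), 5.93 to 28.1 and 7.64 to 71.1 for muscle, and 388 to 746 and 155 to 177 for neurons, nearly all of the last from miR-9-5p. The blood miRNA miR-223-3p had at most 1 read per library and the neuronal miR-124-3p at most 3. Most of the blood sum came from miR-451a, with 61, 154 and 12 reads in Ctrl and 64, 34 and 69 in *MIR21*-KO. The part of these in the results was not tested.

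miR-182-5p was the most abundant member in every library and ranked between place 12 and place 19 among all miRNAs. It was followed by miR-183-5p, at places 26 to 53, and miR-96-5p, at places 42 to 84, whereas miR-183-3p stood at places 397 to 555. The mature strands are 22 to 24 nt long, so these orders are given without a correction for length. miR-183-5p and miR-96-5p exchanged places in Ctrl replicate 3, so their order was not the same in all libraries.

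hsa-miR-182-5p, which represses FOXO-family transcription factors in several tumor types, had values of 5268, 6530 and 4524 in the Ctrl libraries against 7026, 6482 and 9855 in *MIR21*-KO. The groups overlapped only through *MIR21*-KO replicate 2, which lay just below Ctrl replicate 2, and *MIR21*-KO replicate 3 was the highest of all. The Ctrl mean was 5441 ± 1014 (SD, n = 3), and the *MIR21*-KO mean was 7787 ± 1811 (SD, n = 3). The log2 fold change was 0.51 with a standard error of 0.35 and a 95% interval from -0.31 to 1.33, and limma gave an adjusted p of 0.654. The test thus did not tell the difference apart from 0, and the interval reaches from a fold of 0.805 to a fold of 2.52. With 1 library left out in turn, the log2 fold change lay between 0.33 and 0.65. Behind these values stand 19726 to 97536 reads per library, so counting error was small: the 95% Wilson intervals ran from 2831 to 2911 reads per 1000000 in Ctrl replicate 1 and from 13495 to 13687 in *MIR21*-KO replicate 3. Wilson intervals here cover counting error only, as reads were not identified by molecule.

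hsa-miR-183-5p, the guide strand of the first hairpin, had values of 3310, 2663 and 1301 in the Ctrl libraries against 1874, 1873 and 4395 in *MIR21*-KO. The lowest library was thus Ctrl replicate 3 and the highest *MIR21*-KO replicate 3, and the groups overlapped widely. The Ctrl mean was 2424 ± 1025 (SD, n = 3), and the *MIR21*-KO mean was 2714 ± 1456 (SD, n = 3). The log2 fold change was thus 0.14 (95% interval -1.11 to 1.40) at a standard error of 0.54, for which limma gave an adjusted p of 0.926. Its direction rested on single libraries, with a log2 fold change of -0.25 when Ctrl replicate 3 was left out and of -0.27 when *MIR21*-KO replicate 3 was.

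hsa-miR-96-5p, whose seed region is mutated in an inherited form of progressive hearing loss, had values of 576, 889 and 1895 in the Ctrl libraries against 1798, 1048 and 536 in *MIR21*-KO. Here Ctrl replicate 3 was the highest library and *MIR21*-KO replicate 3 the lowest, the reverse of miR-183-5p. The Ctrl mean of 1120 ± 689 (SD, n = 3) was close to the *MIR21*-KO mean of 1128 ± 634 (SD, n = 3). The log2 fold change of 0.02 had a standard error of 0.63, and limma gave an adjusted p of 0.980. Its 95% interval from -1.45 to 1.49 still allows folds from 0.366 to 2.81, so these libraries do not show that miR-96-5p was the same in both conditions. The sign changed with single libraries. Leaving out Ctrl replicate 1 gave a log2 fold change of -0.37, and leaving out replicate 2 gave -0.06. In *MIR21*-KO, the value was -0.40 with replicate 1 left out and -0.01 with replicate 2 left out. Omitting replicate 3 moved it up instead, to 0.49 for that of Ctrl and to 0.47 for that of *MIR21*-KO.

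hsa-miR-183-3p, the passenger strand, was scarce. It had 4, 5 and 21 reads in the Ctrl libraries against 73, 68 and 15 reads in *MIR21*-KO, which are deposited values of 1.07, 1.35 and 2.96 against 5.26, 4.90 and 1.95. *MIR21*-KO replicates 1 and 2 lay above all other libraries, and *MIR21*-KO replicate 3 lay within the range of Ctrl. At this depth the Wilson intervals were wide, from 0.226 to 1.5 reads per 1000000 in Ctrl replicate 1 and from 1.63 to 4.44 in *MIR21*-KO replicate 3. The log2 fold change of 0.83 was the largest of the 4 members, with a standard error of 0.45, a 95% interval from -0.22 to 1.88 and an adjusted p of 0.565 by limma. It is on the log2(value + 1) scale, which understates changes of values this low, and was 1.13 with a pseudocount of 0.1. Leaving out 1 library in turn, it ran from 0.64 to 1.18.

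By limma, 0 of the 4 members were called at an adjusted p under 0.05, against a background of 0% of the 607 tested miRNAs called higher and 0.824% called lower. At an unadjusted p under 0.05, again 0 members passed, where 6.75% of all tested miRNAs were higher and 4.45% lower. Count tests on the recovered reads also called 0 members, with backgrounds of 0% higher and 1.32% lower by edgeR and of 0.667% higher and 3.17% lower by DESeq2. The groups of libraries stood apart without overlap in 0 of the 4 members. Of all tested miRNAs, 9.56% had their *MIR21*-KO values wholly above those of Ctrl and 6.59% wholly beneath them. The median log2 fold change of the 607 miRNAs was 0.24 on the deposited scale. Relative to it, the members stood at 0.27 for miR-182-5p, -0.09 for miR-183-5p, -0.22 for miR-96-5p and 0.60 for miR-183-3p.

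The scaling of the libraries bears on all members at once, since it shifts every miRNA of a library by the same factor. The median of all tested miRNAs moved to 0.02 with scaling to the total without miR-21, to -0.02 with median centring, to 0.10 with median-of-ratios factors and to 1.34 when libraries were scaled to all of their miRNA reads. Under the last of these, 3 members were called higher by limma, miR-182-5p (log2 fold change 1.90, adjusted p = 0.0138), miR-183-5p (1.53, adjusted p = 0.0365) and miR-183-3p (1.77, adjusted p = 0.0374), against a background of 32.3% of all tested miRNAs called higher and 1.15% called lower. miR-96-5p had a log2 fold change of 1.40 (adjusted p = 0.147). This scaling counts the reads of miR-21-5p in the Ctrl totals, and their loss raises the summed share of the other miRNAs, though not that of each one. Relative to the median under the same scaling, the values were 0.56 for miR-182-5p, 0.19 for miR-183-5p, 0.06 for miR-96-5p and 0.43 for miR-183-3p. Under the other 3 scalings, where miR-183-5p and miR-96-5p had negative fold changes, 0 members were called. The background there was 0% called higher in each, and 0.824% called lower with the total without miR-21, 1.15% with median centring and 0.988% with median-of-ratios factors.

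**Figure D1:**
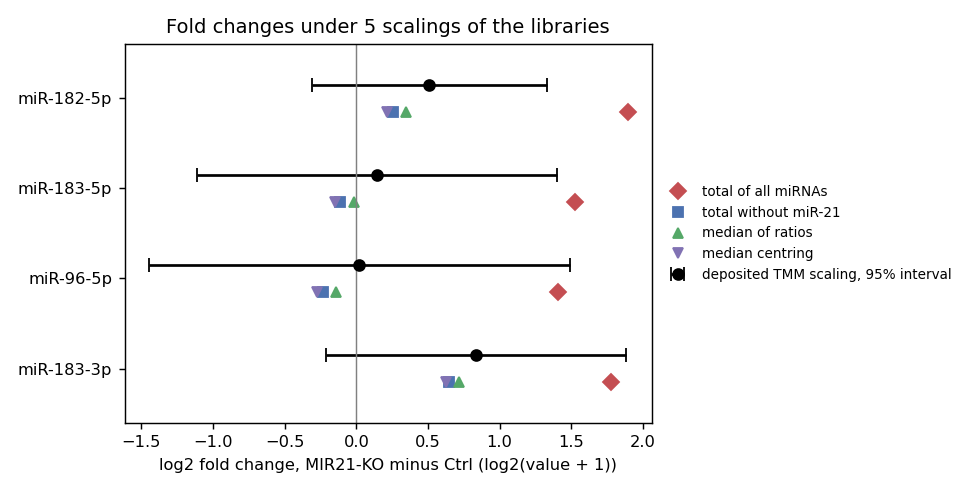
Log2 fold change (*MIR21*-KO minus Ctrl, on the log2(value + 1) scale) of each member; black points and bars give the deposited TMM scaling with its 95% interval from limma, and coloured symbols give 4 other scalings. Every black interval includes 0, and the diamonds, for scaling to the total of all miRNAs, lie at 1.40 to 1.90, while the other 3 scalings place miR-183-5p and miR-96-5p below 0.

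Together, the 4 members had a summed value of 9154, 10083 and 7723 in the Ctrl libraries against 10703, 9408 and 14788 in *MIR21*-KO. The Ctrl mean was 8987 ± 1189 (SD, n = 3), and the *MIR21*-KO mean was 11633 ± 2808 (SD, n = 3), a log2 ratio of 0.37 that fell to 0.16 without *MIR21*-KO replicate 3. As a share of all miRNA reads, the cluster took 4988, 6036 and 5603 reads per 1000000 in the Ctrl libraries against 17135, 18007 and 20393 in *MIR21*-KO. As a share of the reads other than miR-21-5p and miR-21-3p, it took 14475, 19178 and 18448 reads per 1000000 in the Ctrl libraries against 17139, 18010 and 20398 in *MIR21*-KO, and the groups overlapped. The cluster thus filled a 3.34-fold larger part of the sequenced miRNA pool of *MIR21*-KO cells, but a 1.07-fold larger part of the pool without miR-21.

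The make-up of the cluster within a library does not depend on any scaling factor. miR-182-5p took 57.5%, 64.8% and 58.6% of the cluster reads in Ctrl and 65.6%, 68.9% and 66.6% in *MIR21*-KO, so that every *MIR21*-KO library lay above every Ctrl library. The share averaged 60.3% ± 3.9 (SD, n = 3) over the Ctrl libraries and 67.1% ± 1.67 (SD, n = 3) over those of *MIR21*-KO, a difference of 6.77 percentage points, which ran from 5.39 to 9.0 points with 1 library left out. The gap between the closest libraries of the groups, Ctrl replicate 2 and *MIR21*-KO replicate 1, was under 1 point, and no test was run on this share. By their deposited values, 9.56% of all tested miRNAs also stood wholly higher in *MIR21*-KO. No such background was made for shares within a cluster.

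The remainder was divided unevenly between miR-183-5p and miR-96-5p. miR-183-5p took 36.2%, 26.4% and 16.8% of the cluster reads in Ctrl and 17.5%, 19.9% and 29.7% in *MIR21*-KO. miR-96-5p took 6.29%, 8.82% and 24.5% in the Ctrl libraries against 16.8%, 11.1% and 3.63% in *MIR21*-KO. *MIR96* and *MIR183* lie next to each other on the same strand. The number of miR-183-5p reads per miR-96-5p read was 5.75, 2.99 and 0.686 in the Ctrl libraries against 1.04, 1.79 and 8.19 in *MIR21*-KO. This ratio spanned 11.9-fold over the libraries, more than the value of any member (2.18-fold for miR-182-5p, 3.38-fold for miR-183-5p, 3.53-fold for miR-96-5p and 4.92-fold for miR-183-3p). It ranged from 0.686 to 5.75 among the Ctrl libraries and from 1.04 to 8.19 among those of *MIR21*-KO, and the group means of 3.14 ± 2.54 (SD, n = 3) and 3.67 ± 3.93 (SD, n = 3) differed by less than this spread.

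**Figure D2:**
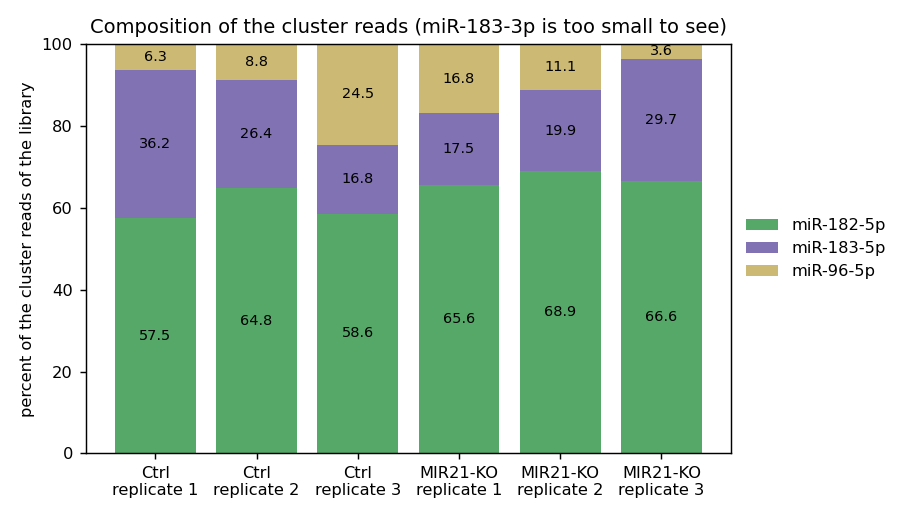
Percent of the summed reads of the 4 members that fell to each 5p strand, per library (stacked bars from 0 to 100%); miR-183-3p held at most 0.0521% and is not visible. The miR-182-5p part is 57.5% to 64.8% in Ctrl and 65.6% to 68.9% in *MIR21*-KO, while the miR-96-5p part ranges from 3.63% to 24.5%.

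In each hairpin the 5p strand held nearly all reads. Per 100 reads of miR-183-5p there were 0.0323, 0.0508 and 0.228 reads of miR-183-3p in Ctrl and 0.281, 0.262 and 0.0444 in *MIR21*-KO. The ratio of Ctrl replicate 3 was thus near those of *MIR21*-KO replicates 1 and 2, and that of *MIR21*-KO replicate 3 was near those of the other Ctrl libraries. The group means were 0.104 ± 0.108 (SD, n = 3) and 0.196 ± 0.131 (SD, n = 3), and their difference of 0.0920 lay between 0.0495 and 0.168 with 1 library left out. The passenger strand of the *MIR182* hairpin, miR-182-3p, had 10 to 49 reads per library, or 0.0185 to 0.134 per 100 reads of miR-182-5p. Its log2 fold change was -0.32, the standard error 0.41, and limma gave an adjusted p of 0.786. miR-96-3p had 0 to 10 reads per library and did not pass the filter on low values. In Ctrl replicate 1 it had 0 reads, which allows up to 0.437 reads per 1000000. The seed relative miR-1271-5p also had 0 to 10 reads and was not tested, so that nearly all reads with the seed of miR-96-5p were reads of miR-96-5p itself. Of these 3 related strands, 1 was tested and 0 were called.

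The members varied between replicates along the same line as most miRNAs, but in opposite directions. Ctrl replicate 3 differed from the mean of Ctrl replicates 1 and 2 by -1.19 for miR-183-5p, -0.37 for miR-182-5p, 1.40 for miR-96-5p and 0.85 for miR-183-3p on the log2(value + 1) scale. *MIR21*-KO replicate 3 differed from the mean of *MIR21*-KO replicates 1 and 2 by 1.23, 0.55, -1.35 and -1.04 in the same order. The sign turned between the conditions in all 4 members. It did so in the direction of miR-183-5p and miR-182-5p in 35.3% of the 607 miRNAs and in that of miR-96-5p and miR-183-3p in 48.4%, so such a turn was the rule in these libraries. The median size of the differences over all tested miRNAs was 1.02 in Ctrl and 0.88 in *MIR21*-KO, which miR-182-5p did not reach in either condition.

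Strands of the same hairpin did not need to move together. Of 156 hairpin names with both strands tested, 58 had strands that differed in opposite directions in both conditions, as miR-183-5p and miR-183-3p did. In 31 of them, again including the miR-183 hairpin, each of these differences was at least 0.5 on the log2 scale. Over the 6 libraries the correlation of log2 values was -0.93 between miR-183-5p and miR-96-5p (Spearman's rho -0.94), 0.66 between miR-183-5p and miR-182-5p and 0.71 between miR-96-5p and miR-183-3p. These coefficients describe 6 libraries that fall into 2 sides and share their scaling factors.

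**Figure D3:**
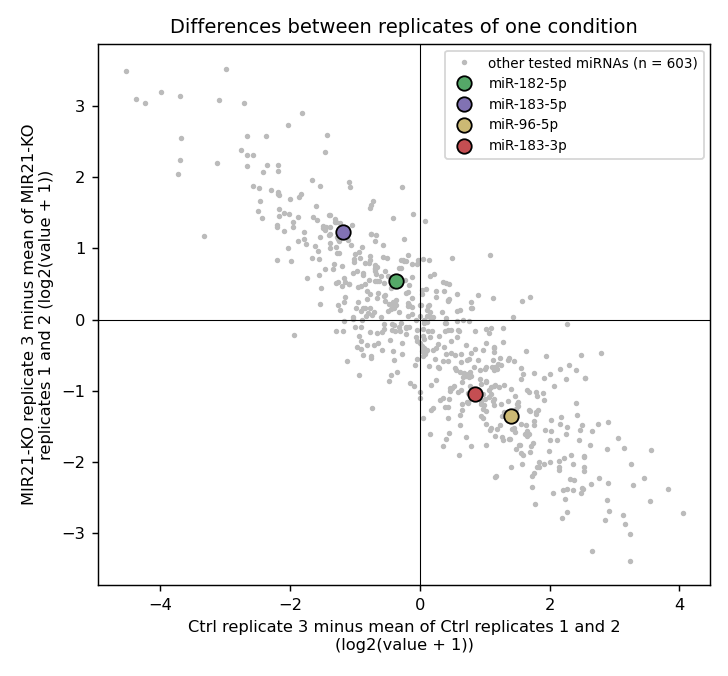
Difference of replicate 3 from the mean of replicates 1 and 2 of the same condition on the log2(value + 1) scale, in Ctrl (horizontal axis) and *MIR21*-KO (vertical axis), for the 4 members (coloured) and all other tested miRNAs (grey). miR-183-5p and miR-182-5p lie at the upper left and miR-96-5p and miR-183-3p at the lower right, along the band formed by most miRNAs.

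Within the sides, and on the deposited scale, the differences between the conditions had the same sign for each member. From the mean of Ctrl replicates 1 and 2 to *MIR21*-KO replicate 3, the log2 difference was 0.75 for miR-182-5p, 0.57 for miR-183-5p, -0.42 for miR-96-5p and 0.42 for miR-183-3p. From Ctrl replicate 3 to the mean of *MIR21*-KO replicates 1 and 2, it was 0.58, 0.53, -0.46 and 0.62 in the same order. miR-182-5p, miR-183-5p and miR-183-3p were thus higher and miR-96-5p lower in *MIR21*-KO on either side. Over all 607 miRNAs the sign was the same on both sides in 68.5%, and each side holds only 1 library of one of the conditions and was read from the same values, so these differences were not tested.

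Among the more abundant miRNAs outside the cluster (mean value 10 or higher), the 5 whose log2 values over the 6 libraries were most like those of the summed cluster were miR-132-3p (Pearson's r = 0.953), miR-1-3p (0.949), miR-4425 (0.947), miR-330-5p (0.939) and miR-654-5p (0.922). As the closest of them, miR-132-3p had values of 249, 245 and 81.1 in the Ctrl libraries against 253, 215 and 709 in *MIR21*-KO. Like the cluster sum, it was lowest in Ctrl replicate 3 and highest in *MIR21*-KO replicate 3. The 5 were picked for the highest correlations over only 6 libraries, so this likeness is partly given by the choice and was not tested.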

How the data were processed

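The values deposited by the authors are a signal for each mature miRNA in each library, made as counts per 1000000 with TMM factors. Per the labels, their processing notes name cutadapt 1.14, Bowtie2 2.3.2, SAMtools 1.5, featureCounts 1.5.3, edgeR 3.18.1 and hg38. How reads matching several miRNAs were counted is not given in the sources used here. The authors' own fold changes, p-values and FDRs in the same table were not used.

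Rows of the same name were summed, from 2813 rows to 2588 miRNAs. Dividing by the worth of 1 read gave whole reads for 100% of the nonzero values (relative tolerance 1e-06). Differences were tested with limma 3.58.1 (R 4.3.3, moderated with a trend) on log2(value + 1), with condition as the only term, for the 607 miRNAs that reached a value of 1 in 3 or more libraries, two-sided and with Benjamini-Hochberg adjustment. The procedure was checked on simulated counts, which held neither the sides seen here nor the near-complete loss of an abundant miRNA. edgeR 4.0.16 and DESeq2 1.42.0 were run on the recovered reads, and DESeq2 gave no adjusted p for 7 miRNAs. Other alternatives were pseudocounts of 0.1 and 10, 2 other filters, 4 other scalings, a replicate block and leaving out each library. Within-side differences are descriptions, chosen with the values known.

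The members and lists were chosen with earlier results of these data known. The miRNAs named are the members, miR-21, the other strands of the hairpins and a seed relative, miRNAs elsewhere on chromosome 7, tissue markers and the 5 miRNAs most like the cluster sum. Genes come from GENCODE 29 (GRCh38) and sequences from RefSeq (GRCh38.p14), where 2281 of the 2588 names matched. Figures were drawn with matplotlib 3.10.9.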

Additional observations from a re-analysis of the deposited data

How the results depend on the processing

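Under 17 alternatives to the deposited scale and limma fit, 0 members were called lower, and 0 were called higher except where libraries were scaled to all miRNA reads, under which 3 were (log2 fold changes 1.90 for miR-182-5p, 1.53 for miR-183-5p and 1.77 for miR-183-3p). There the totals counted miR-21, and the summed cluster had a log2 ratio of 1.74. The ratio was 0.092 with the total without miR-21. With this total, median-of-ratios factors, median centring, edgeR and DESeq2, in this order, the log2 fold change turned to -0.11, -0.017, -0.15, -0.016 and -0.048 for miR-183-5p and to -0.23, -0.14, -0.28, -0.20 and -0.26 for miR-96-5p. With single libraries left out it ran from -0.27 to 0.42 for miR-183-5p and from -0.40 to 0.49 for miR-96-5p. Over the alternatives that gave a value, the fold change was above 0 for miR-182-5p (0.21 to 1.90) and miR-183-3p (0.25 to 1.77). miR-183-3p had no value with a mean of at least 10 required. The labels do not say whether replicate numbers pair the libraries. Deviations of same-numbered libraries correlated at -0.79, -0.60 and -0.88, and 0 of 6 libraries correlated best with their own number. For every replicate number, the Ctrl and *MIR21*-KO libraries lay on opposite sides of the first principal component, so these correlations do not settle pairing. With a replicate block, 0 members were called, with adjusted p from limma of 0.95 for miR-182-5p and miR-183-3p, 0.979 for miR-183-5p and 0.986 for miR-96-5p. Depth limits miR-183-3p most, with 4 to 73 reads per library.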

Other observations

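Other miRNAs encoded on the long arm of chromosome 7 were compared with the cluster. Of 13 listed strands, 7 passed the filter on low values, and 0 were called higher and 0 lower by limma, with a median log2 fold change of 0.46 against 0.24 over all tested miRNAs. This median is the value of miR-29b-3p. That strand and miR-129-5p are also encoded at a further locus on another chromosome, so their reads cannot be assigned to chromosome 7. The remaining 6 were not tested, and 4 of them (both strands of miR-593 and of miR-490) had 0 reads in all libraries. miR-29a-3p, from a gene 1101732 bases from the cluster and known as a repressor of collagen genes, had values of 508, 743 and 3515 in the Ctrl libraries against 3392, 3016 and 616 in *MIR21*-KO. It was thus high in the same 3 libraries as miR-96-5p, with a log2 fold change of 0.75, a standard error of 0.92 and an adjusted p of 0.779 by limma. miR-335-5p, from a gene 721096 bases away within *MEST*, had values of 12.5, 20.0 and 66.5 in the Ctrl libraries against 75.1, 81.2 and 23.5 in *MIR21*-KO. The opposite strand miR-335-3p had 367, 164 and 260.5 in the Ctrl libraries against 90.9, 108 and 259 in *MIR21*-KO. The strands of miR-335 thus had log2 fold changes of opposite sign, 1.0 and -0.87, neither of which passed (adjusted p = 0.671 and 0.643 from limma).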
